A study of Homo sapiens with 12 samples.

Results

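The response of T84 cells to a longer stay in neutral saline was described from the 3 libraries of cells held for 6 h and the 3 libraries of cells held for 3 h at pH 7.4, 6 of the 12 libraries of the series. T84 cells are an established line from a human colon carcinoma and form a tight, polarised monolayer. Per the labels, the cells were confluent in 6-well plates, their medium was exchanged for Hanks buffered saline, and RNA was taken in Trizol after 3 h or 6 h. The other 6 libraries came from cells in the same saline at pH 6.0 for the same times and serve here as the comparison. The labels do not give the recipe of the saline, which in its usual form holds salts and glucose but no amino acids, vitamins or serum. All groups share the loss of medium, and cells kept in medium were not analysed here, so every value below sets 6 h against 3 h in saline. The labels name no separate cultures, so the spread behind the p-values is that of these libraries and may be only technical. In bulk RNA, fewer cells of a type and less RNA per cell cannot be told apart.

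The 3 h libraries held 16865263 to 24331032 counts and the 6 h libraries 16574741 to 18921141. Mitochondrially encoded genes took 8.93% ± 1.5 of the counts at 3 h and 8.51% ± 0.504 at 6 h (SD, n = 3 each). The epithelial marker EPCAM was high, at a mean of 1383.8 CPM (a count scaled to its library total) at 3 h and 1282.0 CPM at 6 h, and so was KRT8, the most abundant of 16 epithelial markers. Of these 16 markers 4 were higher and 3 lower at 6 h, and 5 and 4 in a fit corrected for gene length and GC content. Without replicate 1 at 3 h 1 was higher and 2 lower, without replicate 3 at 3 h or replicate 1 or 3 at 6 h 2 and 2, and with total counts alone 1 and 5. Markers of other cells were low. The 17 fibroblast markers summed to 11 to 13.3 CPM at 3 h and 8.82 to 36.2 CPM at 6 h, with FAP at 0. The highest sum was in replicate 2 at 6 h, where COL1A1 had 260 counts against 4 to 26 in the other 5 libraries, and its part in the results was not tested. The 21 leukocyte markers summed to 9.04 to 11.2 CPM and 9.49 to 11.7 CPM, with CD2 and MS4A1 at 0 and PTPRC at 0 to 2 counts, and the endothelial markers to 15.4 to 15.7 CPM and 10.6 to 14.3 CPM. Of the tested members of these lists, none of 5 fibroblast and none of 4 leukocyte markers and 1 of 4 endothelial markers, which was lower, passed the test.

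Cells that lose amino acids and serum are known to answer through several sensors. Uncharged transfer RNAs activate the kinase GCN2, which slows general translation and favours that of the transcription factor ATF4, whose targets import and make amino acids and charge transfer RNAs. Loss of amino acids also switches off the growth kinase complex mTORC1, which otherwise restrains autophagy and the lysosomal factors TFEB and TFE3 and favours ribosome production. Loss of insulin and growth factors lets FOXO factors enter the nucleus and raise the genes of receptors and their adaptors. In a colonic epithelium these programs meet those that keep the sheet tight: tight junctions seal it, desmosomes and keratins hold the cells together, and mucins cover it.

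Each gene was tested with edgeR's quasi-likelihood test on the deposited counts, in a fit of all 12 libraries. Between 3 h and 6 h at pH 7.4, 4942 of 15630 tested genes passed an adjusted p of 0.05, or 31.6%. At 6 h 2695 were higher (17.2%) and 2247 lower (14.4%), and these shares are the background for the counts of each gene list below. At least 2-fold changes were fewer, 225 genes higher (1.44%) and 142 lower (0.909%). The median log2 fold change of all tested genes was -0.02. Scaled to total counts alone, without the TMM factors, 2093 genes were higher and 3179 lower and that median was -0.09. Without replicate 3 of the 6 h group 3309 of 16183 tested genes passed (20.4%), of which 1271 were lower (7.85%). Without replicate 1 of the 3 h group 3460 of 15992 passed (21.6%), of which 1308 were lower (8.18%). The CPM ranges of the groups did not overlap for 6783 tested genes (43.4%), and 4679 of these passed (29.9% of those tested). Nearly all of the 4942 genes that passed therefore had no overlap. A lack of overlap, where it is given below, adds little to a call. CPM values below are scaled by the TMM factors and given in the order of replicates 1, 2 and 3, and a value after ± is a standard error of a log2 fold change unless marked as an SD. Levels of different genes are compared only as the authors' RPKM, a count divided by gene length and library total. Reads of genes that overlap, on 1 strand or on both, or that have near-identical copies cannot be told apart here, because the sources used do not give the counting.

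Gene length moved with time, and this touches many of the lists below. Among the tested genes ranked by length into 10 equal groups, the median log2 fold change was -0.25 in the second group, with a median length of 1300 bases, and 0.35 in the tenth, with a median of 7939 bases. In the tenth group 860 genes were higher and 46 lower, and in the second 41 were higher and 400 lower. The first group, with a median length of 618 bases, did not follow the trend, at a median of -0.05 with 82 genes higher and 140 lower. Within single libraries, the rank correlation of a gene's level relative to the mean of all libraries with its length was -0.23 to -0.09 at 3 h and 0.19 to 0.33 at 6 h, with no overlap between the groups. In acid saline the trend of the medians ran the other way, from 0.12 in the second group to -0.13 in the tenth. The first group stood at 0.02. The rank correlations within the acid libraries were -0.22 to 0.16 at 3 h and -0.18 to -0.13 at 6 h. These acid groups overlapped, since replicate 1 at 3 h, at -0.22, lay below every 6 h library. A fit that corrected each library for length and GC content took the medians at pH 7.4 to -0.10 and 0.04 and called 4117 of 15167 genes (27.1%), of which 2184 were higher and 1933 lower. Counts from this corrected fit are given beside those of the lists described below. Whether the trend reflects the cells or the RNA was not tested.

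**Figure D1:**
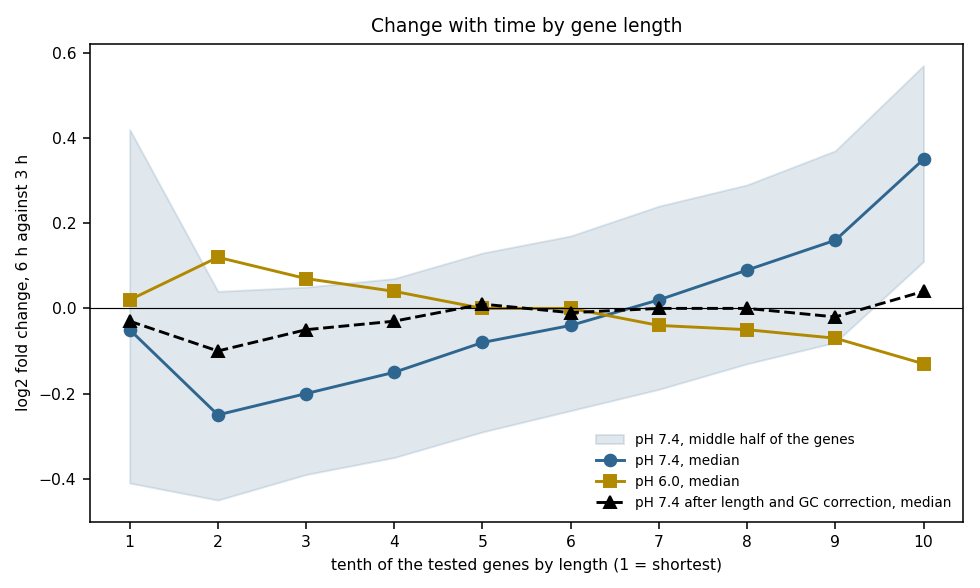
Log2 fold change from 3 h to 6 h (vertical axis) in 10 groups of tested genes of rising length (horizontal axis, 1 = shortest). Blue circles are medians at pH 7.4 with the middle range of the genes shaded (from the lower to the upper quartile), gold squares medians at pH 6.0 and black triangles medians at pH 7.4 after the length and GC correction. In the first group the blue median is -0.05 and the gold one 0.02. The blue medians climb from -0.25 in the second group to 0.35 in the tenth. From the second to the tenth the gold ones fall from 0.12 to -0.13. The black ones lie between -0.10 and 0.04.

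Sets of genes for the import, synthesis and charging of amino acids rose. Of 21 tested amino acid transporters 13 were higher and 1 lower (median log2 0.55), of 36 ATF4 targets 19 were higher and 1 lower (median 0.51), and of 20 aminoacyl-tRNA synthetases 12 were higher and 2 lower (median 0.35). The correction for length and GC content gave 13 and 2, 24 and 1, and 11 and 2. The letters TGATGNAA, a core of the amino acid response element that ATF4 binds with its partners, were searched on both strands of 300-base promoter windows of RefSeq (GRCh38.p14), which reach from 250 bases before to 50 after a gene's start. They were found in 7 of the 16 synthetase genes with a window (43.8%), in 5 of 18 transporter genes (27.8%) and in 5 of 28 ATF4 targets (17.9%), against 324 of 10905 tested genes (2.97%) and 1217 of all 27305 genes (4.46%). Among the genes higher at 6 h the share was 4.8% and among the lower ones 2.09%. Of these holders in the 3 lists, 16 passed the test and all 16 were higher at 6 h. Since nearly all called members of these lists were higher, that direction is not a separate result. Of all tested genes with the letters, 100 were called higher and 37 lower. A match is a description of letters and not of binding, and ATF4 targets were put on their list as such. Other elements were searched too. A heat shock element core lay in 55.6% of 27 chaperone genes (6.6% of tested genes). A CLEAR core lay in 21.4% of 28 lysosomal genes (2.17%), and a sterol element core in 4.35% of 23 cholesterol genes (1.47%). Of 29 chaperones 8 were higher and 2 lower, of 40 lysosomal genes 4 and 8, and of 31 cholesterol genes 1 and 23. Whether a motif's share in a list goes with the list's change was not tested.

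The 4 genes below were, among the members of these 3 lists that passed the test, those with the smallest p that hold the letters before the start. They are printed to show where the letters lie, as the 250 bases before the start in the gene's direction, with the match in capitals. ASNS, asparagine synthetase, lies at chr7:97872409-97872658 (minus strand), GARS1, the glycyl-tRNA synthetase, at chr7:30594628-30594877 (plus strand), SLC1A5, a glutamine transporter, at chr19:46784815-46785064 (minus strand), and IARS1, the isoleucyl-tRNA synthetase, at chr9:92293698-92293947 (minus strand), all in GRCh38.p14.
ASNS: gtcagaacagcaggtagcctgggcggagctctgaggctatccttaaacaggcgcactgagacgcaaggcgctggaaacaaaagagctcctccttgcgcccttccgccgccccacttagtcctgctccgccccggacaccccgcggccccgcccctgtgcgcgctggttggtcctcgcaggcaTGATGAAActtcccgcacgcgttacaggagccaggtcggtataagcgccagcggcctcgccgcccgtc
GARS1: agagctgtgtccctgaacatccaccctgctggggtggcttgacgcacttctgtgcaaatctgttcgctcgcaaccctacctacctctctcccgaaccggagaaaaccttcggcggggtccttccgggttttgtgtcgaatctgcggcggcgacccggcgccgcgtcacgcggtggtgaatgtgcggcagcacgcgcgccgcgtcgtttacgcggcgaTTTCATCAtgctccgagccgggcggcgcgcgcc
SLC1A5: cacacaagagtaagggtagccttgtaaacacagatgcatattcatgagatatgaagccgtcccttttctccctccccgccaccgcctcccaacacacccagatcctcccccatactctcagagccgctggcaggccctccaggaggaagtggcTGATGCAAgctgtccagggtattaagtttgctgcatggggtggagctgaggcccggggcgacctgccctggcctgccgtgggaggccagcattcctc
IARS1: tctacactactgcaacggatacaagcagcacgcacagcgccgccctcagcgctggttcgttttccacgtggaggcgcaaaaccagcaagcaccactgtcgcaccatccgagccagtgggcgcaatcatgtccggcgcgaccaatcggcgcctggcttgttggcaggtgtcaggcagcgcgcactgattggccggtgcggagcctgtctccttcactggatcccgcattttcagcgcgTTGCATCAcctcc
The match began 68 bases before the start in ASNS, 33 in GARS1, 97 in SLC1A5 and 13 in IARS1. In GARS1 and IARS1 it was read on the opposite strand.

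Among the transporters, SLC7A11, which exchanges glutamate for the cystine used to make glutathione, stood at 91.8, 99.3 and 104 CPM at 3 h and at 314, 282 and 368 CPM at 6 h, a log2 fold change of 1.71 ± 0.11 (edgeR adjusted p = 2.05e-09). SLC38A2, a sodium-coupled carrier of small neutral amino acids, stood at 630, 696 and 638 CPM and then at 1332.9, 1310.6 and 1346.8 CPM (1.02 ± 0.08, adjusted p = 6.56e-09). In both genes every 6 h library lay far above every 3 h library. SLC38A1, a carrier of glutamine, rose by 0.99 ± 0.09, SLC7A1, the carrier of arginine and lysine, by 0.98 ± 0.09, and the glycine carrier SLC6A9 by 1.15 ± 0.11. SLC1A5 rose from 511, 472 and 543 CPM to 733, 781 and 762 CPM (0.58 ± 0.08). The 1 lower gene was SLC43A2, a carrier of large neutral amino acids, which fell from 12, 12.8 and 13.9 CPM to 7.56, 8 and 6.63 CPM (-0.80 ± 0.16, adjusted p = 6.53e-04). SLC3A2, the heavy chain that carries several of these transporters to the membrane, had the highest level of the list per length, at 265 RPKM at 3 h and 297 RPKM at 6 h. Its rise was small (0.24 ± 0.09, adjusted p = 0.0456), and its call was lost without any of 4 of the 6 libraries (replicates 2 and 3 at 3 h, 1 and 2 at 6 h), without 4 of the pH 6.0 libraries (replicate 3 at 3 h and each at 6 h), and with total counts alone (0.16). The corrected fit put SLC7A11 at 1.25, SLC6A9 at 1.28, SLC38A2 at 0.83 and SLC7A1 at 0.78. It put SLC38A1 at 0.65, SLC1A5 at 0.71, SLC3A2 at 0.38 and SLC43A2 at -0.68.

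In amino acid metabolism the largest rise was that of CTH, which makes cysteine from cystathionine, from 16.9, 14.7 and 15.2 CPM to 36.3, 37.5 and 38 CPM (1.25 ± 0.10, edgeR adjusted p = 6.30e-09). ASNS rose from 194, 184 and 170 CPM to 288, 300 and 288 CPM (0.68 ± 0.08, adjusted p = 8.12e-07). PSAT1, an enzyme of serine synthesis, rose by 0.79 ± 0.08, the mitochondrial folate enzyme MTHFD2 by 0.79 ± 0.08 and the alanine aminotransferase GPT2 by 0.72 ± 0.08. XPOT, which exports transfer RNAs from the nucleus, rose by 0.82 ± 0.08 and the chloride channel protein CLIC4 by 0.81 ± 0.08. The corrected fit put XPOT at 0.55 and CLIC4 at 0.73. TRIB3, a pseudokinase that feeds back on ATF4, had the highest level of the list, 210 RPKM at 3 h and 333 RPKM at 6 h (0.74 ± 0.09). ALDH18A1, the first enzyme of proline synthesis from glutamate, went against the list and fell from 578, 619 and 707 CPM to 422, 386 and 437 CPM (-0.61 ± 0.09, adjusted p = 1.47e-05).

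Among the synthetases, WARS1 (tryptophan) rose from 127, 110 and 119 CPM to 192, 192 and 201 CPM (0.71 ± 0.08, edgeR adjusted p = 4.09e-07). EPRS1 (glutamate and proline), GARS1 (glycine), CARS1 (cysteine), IARS1 (isoleucine), SARS1 (serine) and MARS1 (methionine) rose by 0.64, 0.62, 0.59, 0.59, 0.58 and 0.56 on the log2 scale, with standard errors of 0.07 or 0.08. AARS1 (alanine), which had the highest level at 163 RPKM and then 205 RPKM, rose by 0.40 ± 0.08. FARSA, a subunit of the phenylalanine enzyme, fell from 49.6, 46.8 and 52.8 CPM to 31.9, 32.3 and 31.8 CPM (-0.64 ± 0.09, and -0.42 in the corrected fit), and RARS1 (arginine) fell by 0.34 on the log2 scale (adjusted p = 0.00882).

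**Figure D2:**
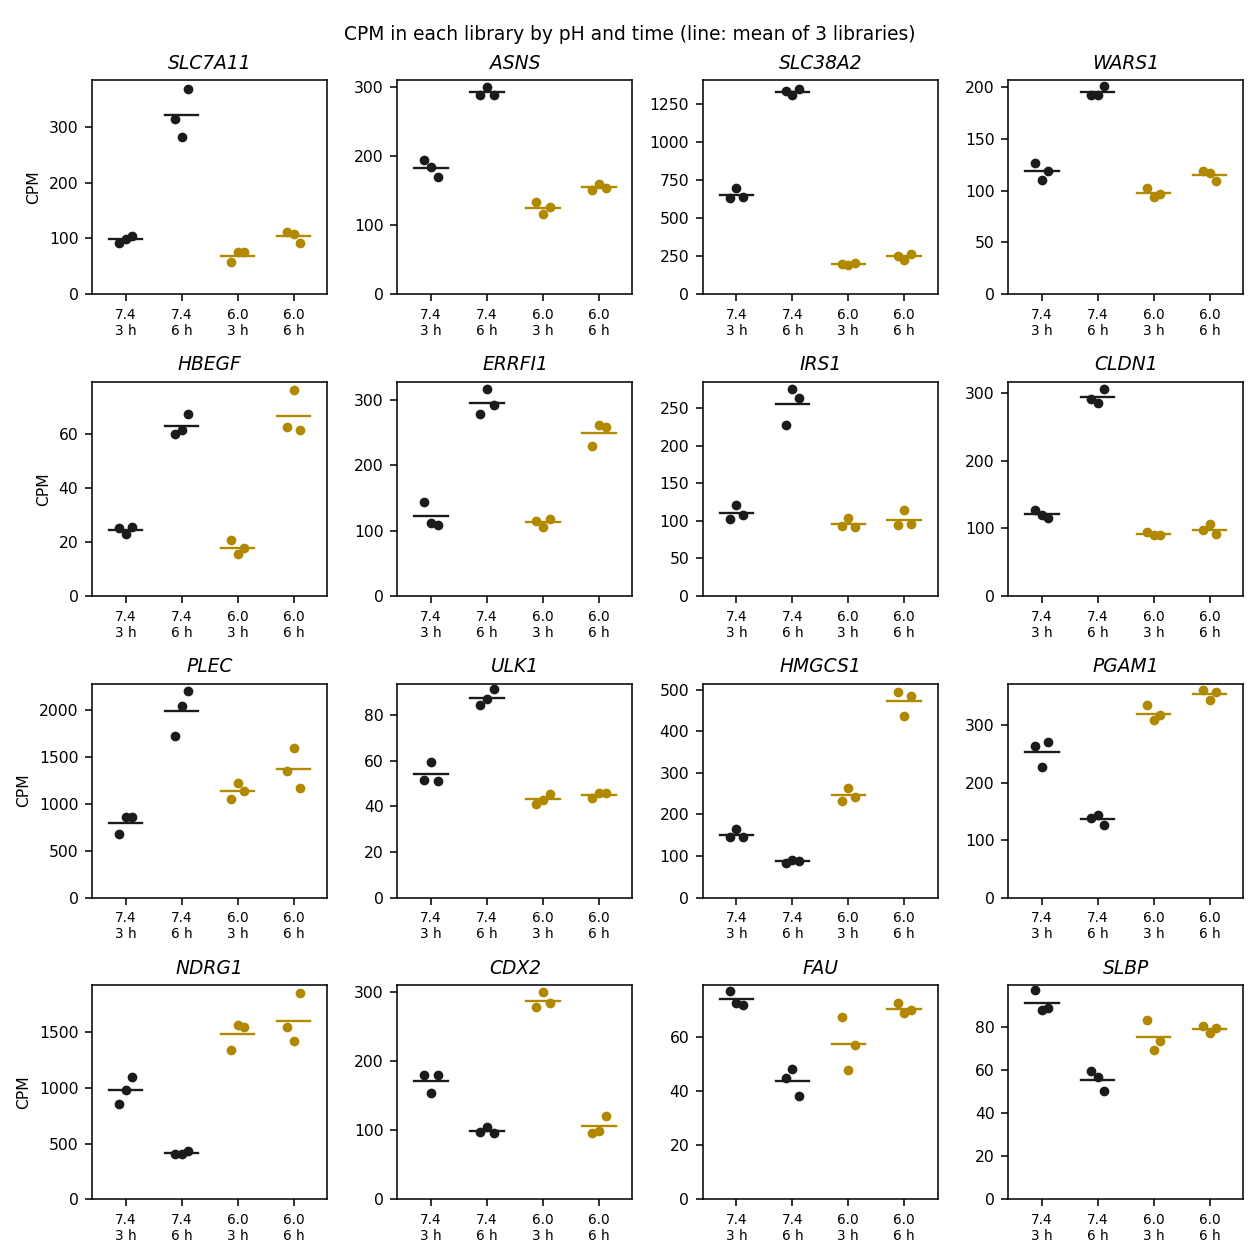
CPM (vertical axis, linear and starting at 0) of 16 genes in each library, by pH and time (horizontal axis). Points are libraries, lines the means of 3 libraries, black for pH 7.4 and gold for pH 6.0. At pH 7.4 the 6 h libraries lie above all 3 h libraries for SLC7A11, ASNS, SLC38A2, WARS1, HBEGF, ERRFI1, IRS1, CLDN1, PLEC and ULK1 and below them for HMGCS1, PGAM1, NDRG1, CDX2, FAU and SLBP.

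Receptors and adaptors of growth factor signalling rose, along with genes that ERK signalling induces. Of 26 tested genes of insulin receptor signalling and FOXO targets 13 were higher and 3 lower (median log2 0.34, and 0.13 in the corrected fit), and of 12 EGF receptor family members and ligands 8 were higher and 1 lower (median 0.51). Of 18 ERK feedback genes 15 were higher and none lower (median 0.75), and of 37 immediate early genes 21 were higher and 1 lower (median 0.43). The length and GC correction gave 9 and 4, 7 and 1, 17 and 0, and 25 and 1. These lists share members, so their counts are not independent. DUSP5 and IER3 are on both the ERK feedback and the immediate early list. ERRFI1 is an ERK feedback gene and ERBB3 is on the insulin and FOXO list, and both are also on the EGF receptor list. Without replicate 3 at 3 h or replicate 2 at 6 h, 1 in place of 3 genes of the insulin and FOXO list was lower.

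IRS1, the adaptor that couples the insulin receptor to PI3 kinase, went from 102, 121 and 108 CPM to 228, 276 and 264 CPM (1.21 ± 0.09, edgeR adjusted p = 6.00e-09). IRS2, its relative and a FOXO target, went from 112, 141 and 111 CPM to 224, 264 and 266 CPM (1.05 ± 0.10, adjusted p = 5.96e-08). For both adaptors all 6 h libraries lay above all 3 h libraries. The kinase subunit PIK3CA rose by 0.81 ± 0.09 (0.39 in the corrected fit), FOXO1 itself by 0.63 ± 0.11, and the receptor ERBB3, the gene of the list with the highest level (112 RPKM and then 151 RPKM), by 0.50 ± 0.09. FOXO1 and ERBB3 share exon sequence with another annotated gene on the same strand, so their counts are uncertain. CITED2, a FOXO target, fell from 38.2, 34.1 and 34.9 CPM to 24.2, 27.4 and 26.9 CPM (-0.45 ± 0.12, adjusted p = 0.00542). The FOXO targets BCL6 and BNIP3 also fell, by 0.35 and 0.28 on the log2 scale. The call of BCL6 was lost without any of 5 libraries (all but replicate 3 at 6 h), and that of BNIP3 without replicate 3 at 3 h, replicate 2 or replicate 3 at 6 h and in the corrected fit.

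Of the ligands, HBEGF rose from 25.1, 22.8 and 25.4 CPM to 60.2, 61.5 and 67.3 CPM (1.37 ± 0.11, edgeR adjusted p = 6.30e-09) and EREG from 56.3, 48.7 and 64.4 CPM to 125, 109 and 145 CPM (1.16 ± 0.11). TGFA rose by 0.52 ± 0.08. The receptor EGFR rose from 112, 156 and 143 CPM to 232, 245 and 288 CPM (0.90 ± 0.11, adjusted p = 9.09e-06), and its change was 0.57 in the corrected fit. ERRFI1, which binds and inhibits the EGF receptor, rose from 144, 112 and 109 CPM to 278, 317 and 292 CPM (1.28 ± 0.10). These ligands, the receptor and the inhibitor had no overlap between the groups, as held for nearly all genes that passed. LRIG3, a membrane protein of the family of EGF receptor regulators, fell from 53.7, 53.4 and 53.7 CPM to 42.9, 38.8 and 42.3 CPM (-0.38 ± 0.09).

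Among the ERK feedback genes PHLDA1 rose by 1.11 ± 0.08, the receptor tyrosine kinase EPHA2 by 1.05 ± 0.08, and SPRED1 and SPRY4, which damp signalling from Ras to ERK, by 1.05 ± 0.08 and 0.97 ± 0.07 (edgeR adjusted p from 1.87e-09 to 6.30e-09). The corrected fit put PHLDA1 at 0.77, EPHA2 at 1.12, SPRED1 at 0.74 and SPRY4 at 0.92. IER3, a stress-induced survival gene, had the highest level of this list at 6 h, 190 RPKM against 102 RPKM at 3 h (0.97 ± 0.19). Among the immediate early genes, MCL1, which protects cells from apoptosis, went from 406, 430 and 419 CPM to 763, 787 and 787 CPM (0.90 ± 0.07), and it had the highest level of its list (110 RPKM and then 195 RPKM). Its exons overlap those of another gene on the same strand, which makes its counts uncertain. The ERK phosphatase DUSP5 went from 12.2, 10.1 and 13.5 CPM to 22.2, 25.2 and 23.5 CPM (0.99 ± 0.11). The AP-1 subunit FOSL2, the zinc finger factor KLF6 and the phosphatase DUSP1 rose by 0.69, 0.66 and 0.81. CCN2, a matricellular gene that YAP also drives, went against the list and fell from 35.4, 40.5 and 40.2 CPM to 30.9, 30.5 and 30.6 CPM (-0.33 ± 0.11, adjusted p = 0.0227). Its call was lost in the corrected fit and without any of 5 libraries (all but replicate 1 at 3 h).

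Autophagy genes were more often higher than lower at 6 h, whereas lysosomal genes and regulators of mTORC1 had calls in both directions. Of 38 autophagy genes 15 were higher and 2 lower (median log2 0.12, corrected fit 15 and 4), of 40 lysosomal and V-ATPase genes 4 were higher and 8 lower (median -0.07, corrected fit 3 and 4), and of 31 mTORC1 and nutrient sensing regulators 8 were higher and 4 lower (median -0.05, corrected fit 4 and 4). ULK1, the kinase that starts autophagy, went from 51.3, 59.6 and 51.2 CPM to 84.5, 87.2 and 91.2 CPM (0.70 ± 0.08, edgeR adjusted p = 1.66e-06). RB1CC1, the scaffold of its complex, went from 58.7, 59.5 and 55.8 CPM to 100, 95.1 and 111 CPM (0.81 ± 0.09). Neither gene's groups overlapped. The lipid transfer protein ATG2B rose by 0.92 ± 0.12. In the corrected fit RB1CC1 stood at 0.53 and ATG2B at 0.42. The cargo receptors OPTN and NBR1 rose by 0.60 ± 0.07 and 0.43 ± 0.08. The cargo receptor SQSTM1 had the highest level of the autophagy list (154 RPKM and then 182 RPKM) and rose by 0.32 ± 0.08, a call that was lost without replicate 3 at 3 h. ATG4B, a protease that processes the ATG8 proteins, fell by 0.43 on the log2 scale. ATG3, which joins those proteins to lipid, fell by 0.29 with overlapping groups, and that call was lost without any of 3 libraries (replicate 1 at 3 h, replicates 2 and 3 at 6 h).

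Among the lysosomal genes, the cholesterol exporter NPC1 rose from 62.2, 75.7 and 64.8 CPM to 105, 112 and 119 CPM (0.73 ± 0.08, edgeR adjusted p = 9.69e-07). The transcription factor TFE3 rose by 0.40 ± 0.07. TFEB rose by 0.44 ± 0.13 (adjusted p = 0.0121), a call lost without replicate 1 at 3 h or replicate 2 at 6 h. The protease CTSH fell by 0.31 and the V-ATPase subunit ATP6V0E1 by 0.51 on the log2 scale. The call of CTSH was lost in the corrected fit (-0.16, adjusted p = 0.0641). The list's 4 higher genes became 2 without replicate 1 at 3 h or replicate 2 at 6 h, and its 8 lower genes became 3 without replicate 1 at 3 h and 4 without replicate 3 at 6 h.

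FNIP1 and FNIP2, partners of folliculin in the control of Rag GTPases, rose by 0.62 ± 0.09 and 0.63 ± 0.10. RPTOR and RICTOR, which define the complexes mTORC1 and mTORC2, rose by 0.58 ± 0.10 and 0.74 ± 0.14. The corrected fit put FNIP1, FNIP2 and RICTOR at 0.36, 0.37 and 0.30. TSC1, an inhibitor of mTORC1, rose by 0.45 ± 0.09, but by 0.13 (edgeR adjusted p = 0.153) in the corrected fit. LAMTOR1, LAMTOR2 and LAMTOR4, short subunits of the Ragulator complex that anchors mTORC1 to the lysosome, fell by 0.50, 0.59 and 0.58 on the log2 scale, and by 0.31, 0.44 and 0.44 in the corrected fit. LAMTOR4, for example, went from 53.7, 60.1 and 54.1 CPM to 35.9, 43.2 and 32.9 CPM. SESN1, a leucine-responsive inhibitor of mTORC1, fell by 0.54.

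Junction and cytolinker genes rose. Of 23 tested tight junction genes 11 were higher and none lower (median log2 0.28), and of 18 desmosome and keratin genes 9 were higher and 1 lower (median 0.29). The corrected fit gave 14 and 0, and 9 and 1. CLDN1, a sealing claudin, went from 127, 120 and 115 CPM to 292, 286 and 306 CPM (1.28 ± 0.08, edgeR adjusted p = 2.85e-10). The scaffold TJP1, or ZO-1, went from 114, 140 and 126 CPM to 213, 224 and 237 CPM (0.83 ± 0.08). In both genes the groups stood well apart. The polarity scaffold PATJ and the linker cingulin (CGN) rose by 0.67 ± 0.09 and 0.55 ± 0.08. In the corrected fit TJP1 stood at 0.50 and PATJ at 0.32. CLDN3 had the highest level of the tight junction list, with 487, 396 and 425 CPM at 3 h and 332, 401 and 294 CPM at 6 h (-0.35 ± 0.13, adjusted p = 0.0579), and its groups overlapped.

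PLEC, the giant linker plectin that ties keratins to hemidesmosomes, went from 676, 860 and 864 CPM to 1718.4, 2040.7 and 2204.7 CPM (1.31 ± 0.12, edgeR adjusted p = 1.31e-07). Desmoplakin (DSP), which ties them to desmosomes, went from 727, 980 and 914 CPM to 1430.0, 1419.8 and 1675.1 CPM (0.79 ± 0.11). Both lie in the group of the longest genes, and the corrected fit put their changes at 0.90 and 0.42 (adjusted p = 1.59e-08 and 5.43e-05). Envoplakin (EVPL) and KRT80 rose by 0.77 ± 0.09 and 0.76 ± 0.11. The keratin KRT19, a short gene, fell from 808, 712 and 835 CPM to 558, 605 and 538 CPM (-0.47 ± 0.08, and -0.25 in the corrected fit). KRT8, at 1213.4 RPKM and then 1006.5 RPKM the highest of its list, did not pass the test (-0.20 ± 0.08, adjusted p = 0.0728).

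Of 17 tested mucins 5 were higher and 2 lower (median log2 0.35, corrected fit 5 and 2). The lower mucins became 4 without replicate 2 at 6 h, and without replicate 3 at 6 h 3 were higher and none lower. The goblet cell mucin MUC2 went from 24.4, 46.8 and 32.4 CPM to 56.1, 75.5 and 71.1 CPM (0.97 ± 0.22, edgeR adjusted p = 0.00577), and MUC5AC, the surface mucin of the stomach, from 12.7, 18.2 and 15.7 CPM to 22, 30.2 and 31 CPM (0.84 ± 0.16). MUC13, a membrane mucin with the highest level of the list at 325 RPKM and then 405 RPKM, rose by 0.39 ± 0.08. Of 22 YAP and TEAD targets 12 were higher and 1 lower (median 0.51, corrected fit 13 and 0). These included the LIM protein gene AJUBA (0.62 ± 0.07), the kinase gene LATS2 (0.78 ± 0.09) and TEAD1 itself (0.93 ± 0.12, and 0.53 in the corrected fit). The exons of AJUBA overlap another gene on the same strand. The lower one was CCN2.

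Among the 21 tested intestinal lineage transcription factors 5 were higher and 4 lower (median log2 0.03, corrected fit 6 and 2). Without replicate 3 at 3 h 2 were lower. CDX2, the homeobox factor that sets intestinal identity, fell from 180, 154 and 180 CPM to 97.6, 105 and 95.8 CPM (-0.78 ± 0.09, edgeR adjusted p = 1.06e-06). KLF5, a crypt factor, rose from 440, 433 and 467 CPM to 601, 616 and 646 CPM (0.48 ± 0.08), and HNF4A, a factor of the mature epithelium, by 0.41 ± 0.10. These 3 factors of the epithelium therefore did not move as 1 group.

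Sterol synthesis fell. Of 31 tested genes of cholesterol synthesis and sterol regulation 23 were lower and 1 was higher at 6 h (median log2 -0.39, corrected fit 17 and 1). The early enzyme HMGCS1 fell from 145, 164 and 145 CPM to 83.7, 89.9 and 88.4 CPM (-0.79 ± 0.08), with groups that did not overlap. The first enzyme committed to sterols, FDFT1, fell by 0.97 on the log2 scale, and it had the highest level of the list, 205 RPKM and then 99.4 RPKM. The later enzymes SQLE and MSMO1 fell by 0.87 and 1.03. INSIG1, a target of the sterol factor SREBP2 that also holds it back, fell from 129, 157 and 131 CPM to 68.4, 78.3 and 71.5 CPM (-0.93 ± 0.09).

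Of 22 genes of fatty acid and triglyceride synthesis 9 were lower and 1 higher (median log2 -0.20, corrected fit 12 and 1). The elongase ELOVL6 fell by 0.78, the phosphatidate phosphatase LPIN1 by 0.56 and fatty acid synthase (FASN) by 0.37 on the log2 scale, the last by 0.57 in the corrected fit. Malic enzyme (ME1), which supplies NADPH, rose by 0.36 ± 0.08. SCD, the stearoyl-CoA desaturase with the highest level of the list (279 RPKM and then 261 RPKM), did not pass the test (-0.02 ± 0.11, edgeR adjusted p = 0.895). Of 26 fatty acid oxidation and PPAR targets 9 were lower and 4 higher (corrected fit 6 and 2), and 2 were higher without replicate 1 or 3 at 3 h or replicate 3 at 6 h.

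Genes of many steps of glycolysis were lower. Of 24 tested genes of glycolysis and glucose uptake 15 were lower and 3 higher (median log2 -0.28, corrected fit 11 and 3), and 8 were lower without replicate 3 at 6 h. PFKFB4, which makes an activator of phosphofructokinase, fell from 25.2, 26.1 and 36.3 CPM to 6.34, 8.92 and 8.4 CPM (-1.88 ± 0.23, edgeR adjusted p = 7.02e-05). The mutase PGAM1 fell from 263, 227 and 271 CPM to 139, 143 and 126 CPM (-0.90 ± 0.08). The lactate exporter SLC16A3 fell from 45.2, 37.2 and 47.4 CPM to 21.5, 23 and 19.1 CPM (-1.03 ± 0.11). No 6 h library of these genes reached the level of a 3 h library. ENO2, LDHA and TPI1 fell by 0.65, 0.58 and 0.53, and TPI1 by 0.35 in the corrected fit. GAPDH, the highest of the list at 1851.1 RPKM and then 1487.2 RPKM, fell by 0.24 (adjusted p = 0.0393), but not in the corrected fit (-0.06) or without any of 4 libraries (replicates 1 and 3 of either time) or without replicate 3 at 3 h and pH 6.0. The glucose carrier SLC2A1 rose from 62.8, 58.3 and 65.6 CPM to 80.4, 82.3 and 82.2 CPM (0.39 ± 0.08), and the lactate carrier SLC16A1 by 0.37 ± 0.08. The hexokinase HK1 rose by 0.32 ± 0.11, a call lost without any of 4 libraries (replicates 1 and 2 at 3 h, 1 and 3 at 6 h).

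Of 26 HIF targets outside glycolysis 6 were lower and 2 higher (median log2 -0.11, corrected fit 9 and 3). NDRG1, a hypoxia-induced gene, fell from 857, 978 and 1092.9 CPM to 406, 407 and 434 CPM (-1.23 ± 0.10, edgeR adjusted p = 1.73e-08). PDK1, which holds pyruvate back from the mitochondria, fell by 0.61 and the collagen lysyl hydroxylase PLOD2 by 0.44 on the log2 scale. The hormone gene STC2 and the small MAF factor MAFF rose by 0.55 ± 0.08 and 0.71 ± 0.08.

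Short genes of ribosomes and mitochondria were lower, and so were those of proteasomes in the fit of all 12 libraries. Of 76 tested cytosolic ribosomal protein genes 59 were lower and none higher (median log2 -0.43, median length 1784 bases), of 66 nuclear-encoded subunits of oxidative phosphorylation 34 and none (median -0.43, 1423 bases), of 30 proteasome subunits 13 and none (median -0.25, 2416 bases), and of 20 small nucleolar RNA host genes 13 and none (median -0.43, 1800 bases). The fit corrected for length and GC content called 34, 24, 8 and 6 of them lower and again none higher. None of 13 mitochondrially encoded mRNAs passed the test. The counts moved with single libraries. Without replicate 1 at 3 h they were 29, 15, 1 and 4, and without replicate 3 at 6 h 22, 16, 1 and 3. For the proteasome, 1 of 30 lies below the shares of all tested genes that were lower in those fits, 8.18% and 7.85%. The small nucleolar RNA host genes were at 5 without replicate 2 at 3 h and 6 without replicate 1 at 6 h, and the proteasome subunits at 8 without replicate 3 at 3 h, 7 without replicate 1 at 6 h and 8 without replicate 2 at 6 h. These lists and the length trend thus moved together, and their separate parts cannot be told apart beyond the corrected fit.

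FAU, a fusion gene of ribosomal protein S30, went from 77.3, 72.9 and 72.1 CPM to 44.8, 48.3 and 38.2 CPM (-0.76 ± 0.10, edgeR adjusted p = 1.14e-05). RPS25 went from 315, 299 and 301 CPM to 233, 240 and 195 CPM (-0.45 ± 0.09), and RPL35A and RPL6 fell by 0.48 each. FAU shares exon sequence with another gene on the same strand, so its counts are uncertain. In FAU and RPS25 every 6 h library was below every 3 h library. RPL29 had the highest level of the list, 1496.1 RPKM and then 1132.3 RPKM, and fell by 0.33, a call lost in the corrected fit and without replicate 1 at 3 h or replicate 1 or 3 at 6 h. The complex I subunit NDUFB10 went from 51.1, 47.5 and 48.3 CPM to 31.4, 33.4 and 23.8 CPM (-0.73 ± 0.13, adjusted p = 4.88e-04). NDUFB1 fell by 0.74 and the complex IV subunit COX5A by 0.56. ATP5F1B, the catalytic subunit of ATP synthase, had the highest level of the nuclear-encoded subunits (438 RPKM and then 375 RPKM) and did not pass (-0.15 ± 0.08, adjusted p = 0.167). MT-CO1, encoded in the mitochondrion, did not pass either (-0.00 ± 0.12, adjusted p = 0.994). The ubiquitin receptor subunit PSMD4 fell by 0.43 (corrected fit -0.27) and the core subunit PSMA4 by 0.29, the latter call lost without replicate 1 at 3 h or replicate 3 at 6 h. The host transcripts SNHG15 and GAS5 fell by 0.57 and 0.51, with overlapping groups for GAS5 and its call lost without replicate 1 or 2 at 3 h.

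Genes of replication and mitosis fell. Of 40 tested G1/S and DNA replication genes 21 were lower and 3 higher (median log2 -0.30, corrected fit 21 and 1), and of 34 G2 and mitosis genes 15 were lower and 2 higher (median -0.14, corrected fit 20 and 2). SLBP, which processes histone mRNAs, went from 97, 88 and 89 CPM to 59.8, 56.6 and 50.1 CPM (-0.72 ± 0.09, edgeR adjusted p = 2.33e-06), and GINS2, a helicase partner, from 47.1, 37.2 and 44.9 CPM to 24.8, 25 and 22.1 CPM (-0.84 ± 0.11). The origin factors ORC1 and MCM2 fell by 0.59 and 0.41, and MCM7, the highest of the list at 219 RPKM and then 161 RPKM, by 0.37. The higher genes were the kinase gene CDK6 and the D cyclins CCND1 and CCND2, at 0.54 ± 0.09, 0.29 ± 0.08 and 0.33 ± 0.10. CCND1 lost its call without replicate 3 at 6 h and CCND2 without replicate 3 of either time. In the corrected fit CCND1 alone of the 3 kept its call, at 0.34 (adjusted p = 6.58e-04). Without replicate 3 at 6 h 1 of the 40 genes was higher.

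The mitotic cyclin CCNB1 went from 95.3, 84.9 and 90.3 CPM to 66.5, 59 and 60.4 CPM (-0.54 ± 0.08, edgeR adjusted p = 2.39e-05). The kinesin KIF20A fell by 0.58 and CDC20, an activator of the anaphase complex, by 0.63. ECT2, an exchange factor of cytokinesis, rose by 0.48 ± 0.08. MKI67, the gene of the proliferation marker Ki-67 and also a member of the mitosis list, rose by 0.42 ± 0.12 (adjusted p = 0.0125). Its value in the corrected fit was -0.05 (adjusted p = 0.635), and its call was lost without replicate 1 at 3 h or replicate 3 at 6 h. Of 22 p53 targets 11 were higher and 3 lower (median log2 0.32, corrected fit 11 and 1), with 1 lower without replicate 1 at 3 h. The cell cycle inhibitor CDKN1A went from 70.8, 74.7 and 78.3 CPM to 122, 137 and 129 CPM (0.80 ± 0.10), the death receptor TNFRSF10B rose by 0.78 ± 0.07, SESN2 by 0.63 ± 0.10 and the apoptosis gene BBC3 by 0.56 ± 0.11. CDKN1A, SESN2 and BBC3 are also known to answer to stresses other than p53 activation.

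**Figure D3:**
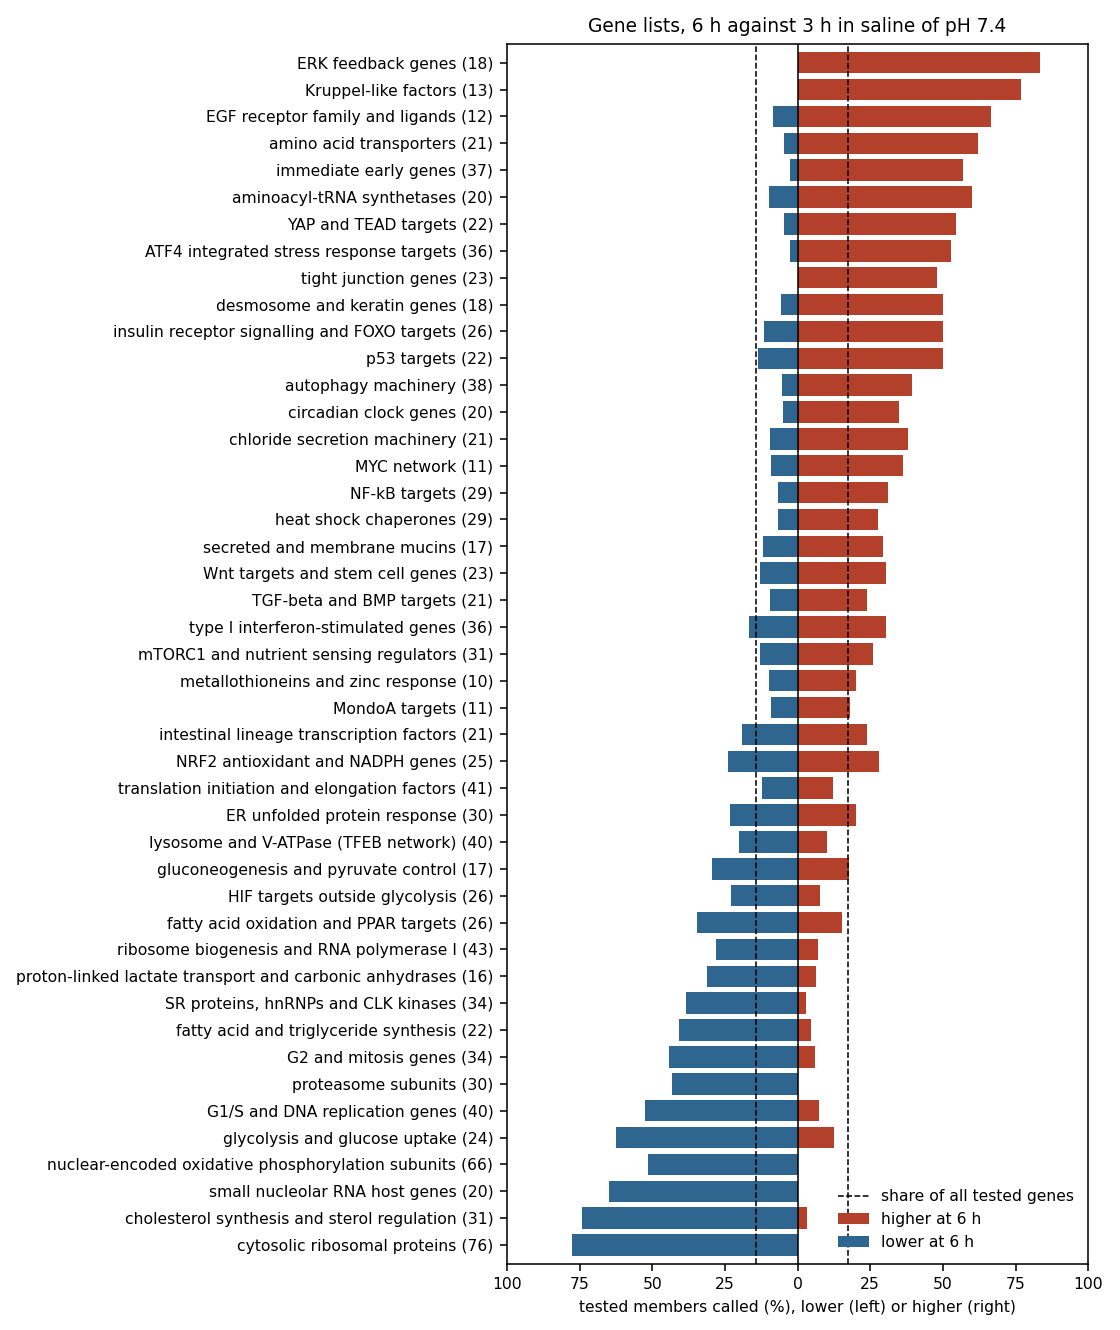
Share of the tested members of each gene list (rows, number tested in parentheses) that passed the test at pH 7.4, lower at 6 h to the left in blue and higher to the right in red, in percent. Dashed lines are the shares of all tested genes, 14.4% lower and 17.2% higher. ERK feedback genes (15 of 18 higher) are at the top and ribosomal protein genes (59 of 76 lower) at the bottom.

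Ranked by size alone among genes with a mean of at least 100 counts and groups that did not overlap, the 12 largest rises were those of KIF21B, ACSL6, SLC7A11, GK, PTPN13, PTPN14, TNS4, ITGB8, ERN1, CREB5, SYNE3 and NAV3. Groups did not overlap for 43.4% of all tested genes. KIF21B, a kinesin, went from 12.4, 16.6 and 14.8 CPM to 52.3, 60.4 and 61.6 CPM, a 4-fold rise (log2 2.00 ± 0.12, edgeR adjusted p = 5.30e-10). The acyl-CoA synthetase ACSL6 rose 3.38-fold and glycerol kinase (GK) 3.03-fold, from 16.1, 13.5 and 15.2 CPM to 46.5, 42.5 and 47.1 CPM. Among them were 2 adhesion genes, the adaptor TNS4 (2.84-fold) and the integrin ITGB8 (2.81-fold). The tyrosine phosphatases PTPN13 and PTPN14 rose 2.93-fold and 2.9-fold. ERN1, the endoplasmic reticulum stress sensor IRE1, went from 16.5, 24.1 and 20.7 CPM to 49.8, 59.9 and 60.3 CPM (2.79-fold). CREB5, SYNE3 and NAV3 rose 2.78-fold, 2.77-fold and 2.75-fold. All 12 also passed in the fit corrected for length and GC content, at log2 values of 1.06 to 1.72.

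The 12 largest falls were those of PFKFB4, SLC26A2, MIR210HG, LCN12, AK4, SLC39A2, PNPLA3, NDRG1, HAVCR1, PGBD5, GPRC5B and SRMS. SLC26A2, a sulfate carrier, went from 208, 338 and 271 CPM to 97.4, 82 and 110 CPM, 2.82-fold lower (log2 -1.50 ± 0.17, edgeR adjusted p = 2.58e-05). MIR210HG, a miRNA host transcript, and AK4, a mitochondrial adenylate kinase, both known to be induced in hypoxia, were 2.77-fold and 2.49-fold lower. HAVCR1, a phosphatidylserine receptor, went from 103, 126 and 113 CPM to 48.4, 48.5 and 52.6 CPM (2.29-fold lower). The zinc carrier SLC39A2 was 2.42-fold lower and the lipid hydrolase PNPLA3 2.37-fold lower. LCN12, PGBD5, GPRC5B and SRMS were 2.56-fold, 2.27-fold, 2.27-fold and 2.17-fold lower. PFKFB4, PNPLA3 and PTPN14 share exon sequence with another annotated gene on the same strand, so their counts are uncertain.

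The comparison with acid saline asked which of these changes with time belonged to both salines. It shares no library with the one at pH 7.4. From 3 h to 6 h at pH 6.0, 3050 genes passed (19.5%), 1351 higher (8.64%) and 1699 lower (10.9%), and without replicate 3 of the 3 h group at pH 6.0 the number was 1915. The balance of directions depended on the fit, with 1898 higher and 1510 lower without replicate 1 of that group, 773 and 2499 with total counts alone, and 2266 and 1508 after the length and GC correction. Of the 2695 genes higher at pH 7.4, 431 (16%) were also higher at pH 6.0 and 301 (11.2%) lower. These are 31.9% and 17.7% of the genes higher and lower at pH 6.0. Of the 2247 genes lower at pH 7.4, 258 (11.5%) were lower and 211 (9.39%) higher at pH 6.0, or 15.2% and 15.6% of those lists. The difference between the changes with time was tested directly, as the log2 change at pH 7.4 minus that at pH 6.0, and 4589 genes passed (29.4%), 2541 positive (16.3%) and 2048 negative (13.1%). After the length and GC correction 1605 were positive and 2067 negative. Among the genes higher at pH 7.4, 1668 (61.9%) had a positive difference past the threshold, with a median log2 change of 0.47 at pH 7.4 and -0.00 at pH 6.0. Among the lower ones 1282 (57.1%) had a negative difference, with medians of -0.45 and 0.06. Since these genes were chosen by their change at pH 7.4, which is part of the difference, those shares and medians are only a description. The shares cannot be set against the 16.3% and 13.1% of all tested genes.

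**Figure D4:**
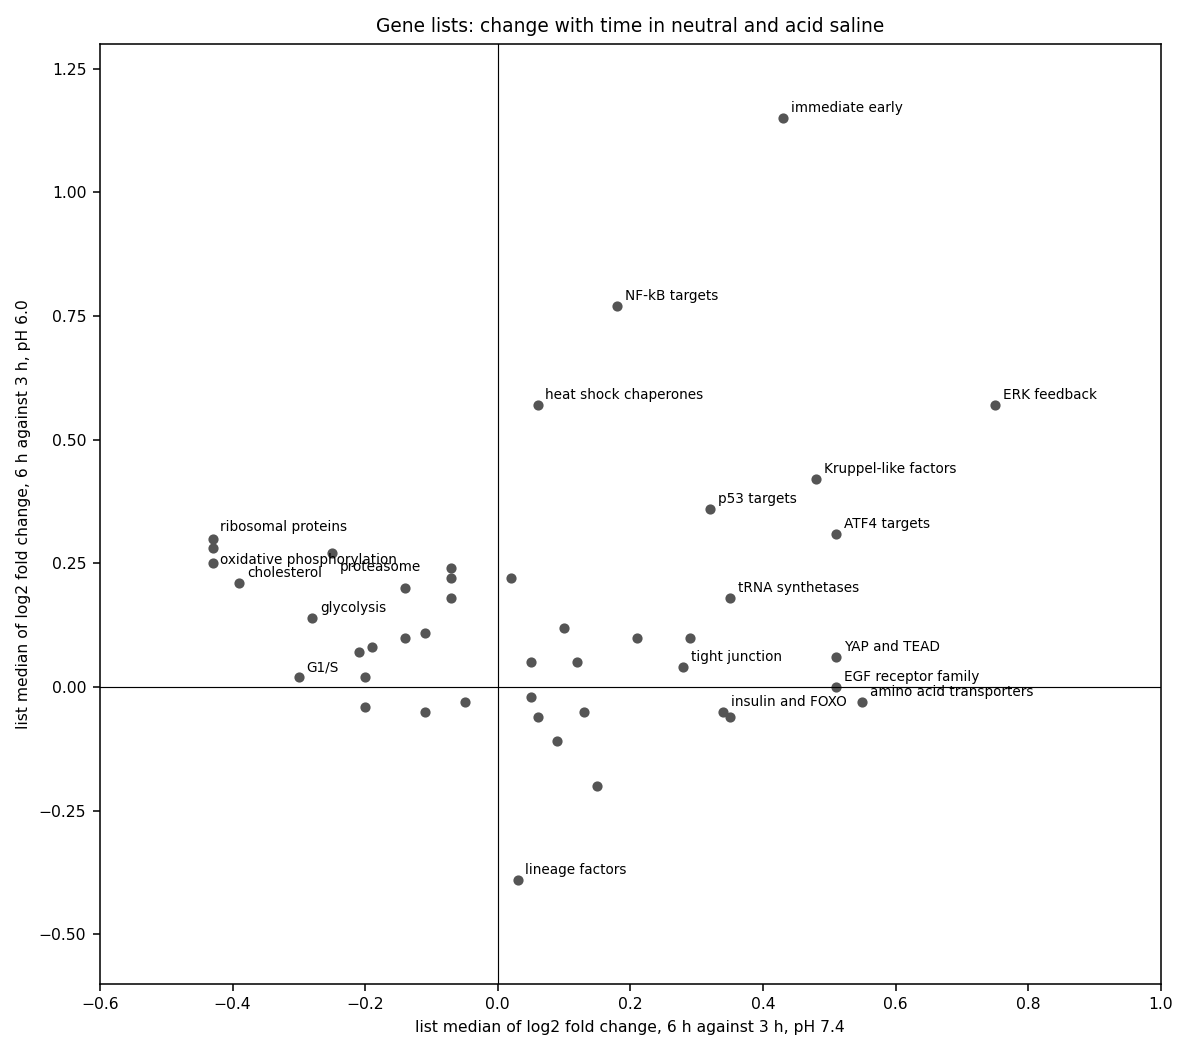
Median log2 fold change from 3 h to 6 h of each gene list with at least 10 tested genes, at pH 7.4 (horizontal axis) and at pH 6.0 (vertical axis), with part of the lists named. ERK feedback genes lie at 0.75 and 0.57, amino acid transporters at 0.55 and -0.03, cholesterol genes at -0.39 and 0.21 and ribosomal protein genes at -0.43 and 0.30.

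Several lists that rose at pH 7.4 did so more than in acid. Among the 21 amino acid transporters the difference was positive for 11 and negative for 2, and 3 were higher and 1 lower with time at pH 6.0. SLC38A2 stood in acid at 196, 190 and 206 CPM at 3 h and at 253, 225 and 267 CPM at 6 h, a rise of 0.33 against 1.02 at pH 7.4 (difference 0.69 ± 0.11, edgeR adjusted p = 1.53e-04). SLC6A9 had a log2 change of -0.31 in acid, which did not pass (difference 1.46 ± 0.17). The insulin and FOXO list had 13 positive and 2 negative differences, the EGF receptor family 5 and 1, the tight junction list 9 and 3 and the mucins 6 and 2. The log2 change at pH 6.0 was -0.20 for IRS2 (difference 1.25 ± 0.14), -0.28 for EGFR (1.17 ± 0.16), 0.10 for CLDN1 (1.19 ± 0.11) and -0.21 for TNS4 (1.71 ± 0.15), and none of these 4 changes in acid passed the test. With the length and GC correction in both salines the counts were 11 and 1 for the transporters, 8 and 3 for insulin and FOXO, 3 and 1 for the EGF receptor family, 7 and 4 for tight junctions and 4 and 2 for mucins. The differences of SLC38A2, SLC6A9, IRS2, EGFR, CLDN1 and TNS4 were then 0.45, 1.56, 0.97, 0.67, 1.12 and 1.64.

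Other lists rose in both salines. Of the ATF4 targets 18 were higher and 1 lower at pH 6.0, with 11 positive and 6 negative differences. Of the ERK feedback genes 10 were higher and 2 lower at pH 6.0, with 5 positive and 3 negative differences. PHLDA1 rose by 1.06 in acid against 1.11 at pH 7.4, and the difference did not pass the test (0.05 ± 0.11, edgeR adjusted p = 0.759). In the corrected fit that difference was -0.39 (edgeR adjusted p = 0.0604). The immediate early genes rose more in acid, 33 of 37 higher with a median of 1.15 and 25 negative differences. DUSP5 rose by 2.30 there (difference -1.31 ± 0.14) and MAFF by 1.78 (difference -1.07 ± 0.11). CDX2 fell at both, by 1.44 on the log2 scale in acid and 0.78 at pH 7.4 (difference 0.66 ± 0.13).

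The lists that fell at pH 7.4 differed in how they behaved in acid. For the cholesterol list 14 genes were higher and 1 lower at pH 6.0 and 21 differences were negative, and INSIG1 and HMGCS1 rose there by 0.75 and 0.94 (differences -1.68 ± 0.12 and -1.73 ± 0.11, edgeR adjusted p = 7.77e-09 and 1.91e-09). For glycolysis 16 differences were negative and 1 was positive, with PGAM1 at 0.15 in acid (difference -1.05 ± 0.11) and NDRG1 of the HIF targets at 0.11 (difference -1.34 ± 0.14). For the ribosomal protein genes 63 differences were negative, with 16 genes higher and none lower in acid, and FAU stood at 0.29 (difference -1.05 ± 0.15). The subunits of oxidative phosphorylation had 43 negative differences and the proteasome 19. After the length and GC correction in both salines the negative differences numbered 20 for cholesterol, 14 for glycolysis, 57 for ribosomal proteins, 35 for oxidative phosphorylation and 19 for the proteasome. The differences of INSIG1, HMGCS1, PGAM1, NDRG1 and FAU were then -1.69, -1.81, -0.90, -1.39 and -0.85. The G1/S list had 7 genes lower and 2 higher at pH 6.0, with 17 negative and 4 positive differences, and the mitosis list 5 lower and 4 higher, with 15 negative and 3 positive differences. In the corrected fit the G1/S list had 5 lower and 7 higher at pH 6.0, with 21 negative and 2 positive differences. The mitosis list then had 3 lower and 8 higher, with 17 negative differences and none positive. Of 43 ribosome biogenesis genes 12 were lower and 3 higher at pH 7.4 and 11 lower and 4 higher at pH 6.0, with 7 positive and 7 negative differences.

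The largest positive differences among genes past the threshold in both tests were those of 3 genes without a symbol, ENSG00000260597 (3.31 ± 0.50), ENSG00000271533 (2.43 ± 0.20) and ENSG00000197550 (2.28 ± 0.30), annotated as non-coding or pseudogene transcripts, followed by HOXB4 (2.04 ± 0.28), HOXB-AS3 (1.83 ± 0.37) and GALNT4 (1.81 ± 0.24). The levels of ENSG00000260597 were low, at 0.476, 1.52 and 1.02 CPM at 6 h and pH 6.0 and at 3.58, 8.82 and 4.23 CPM at 3 h and pH 7.4. ENSG00000271533 went from 11, 15.2 and 15 CPM to 30.6, 31.2 and 35.7 CPM at pH 7.4 and changed by -1.18 at pH 6.0 (edgeR adjusted p = 4.43e-06). HOXB4 and HOXB-AS3, which is annotated as an antisense transcript, each share exon sequence with other annotated genes. Their reads cannot be assigned with certainty, as holds for GALNT4. At pH 7.4 the call of HOXB4 was lost without replicate 1 or 3 at 3 h and that of HOXB-AS3 without any of 5 libraries (all but replicate 2 at 3 h) and without replicate 2 at 3 h or 3 at 6 h of pH 6.0. The largest negative differences were those of CCN2 (-2.26 ± 0.15), the receptor KIT (-2.05 ± 0.43), PFKFB4 (-1.96 ± 0.30), MSMO1 (-1.92 ± 0.12), RHOV (-1.84 ± 0.24) and MESP1 (-1.81 ± 0.33). KIT stood at 3.03, 4.89 and 5.93 CPM and then at 1.1, 0.645 and 1.22 CPM at pH 7.4, both low levels. MSMO1 fell from 151, 165 and 145 CPM to 69.4, 81.4 and 74.6 CPM at pH 7.4 and rose by 0.89 at pH 6.0.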

How the data were processed

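RNA of 12 T84 libraries was counted by the authors. The deposited series table holds read counts for 48162 Ensembl gene identifiers, and the deposited sample tables hold RPKM values that the authors made from those counts. STAR, CASAVA and the hg19 build are named in the submitters' processing notes. For versions, annotation, counting program and strand, the entry is: not given in the sources used here. A gene's length was recovered from its counts, library totals and RPKM. Symbols, biotypes, GC content and exon overlaps came from the given names tables and GENCODE 29, and promoters from RefSeq (GRCh38.p14), which is not the authors' build.

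The test of the counts was edgeR's quasi-likelihood F test in its robust form (edgeR 4.0.16, R 4.3.3), after TMM scaling and the default expression filter, in 1 fit of 4 groups with 8 residual degrees of freedom, and with Benjamini-Hochberg adjustment over 15630 genes. The common biological coefficient of variation was 9.292%, and no pair of libraries of a group agreed within sampling noise. A standard error is the log2 fold change divided by the square root of F. The fit was also tested on simulated data.

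The comparison and the 50 gene lists were chosen with earlier results of these data known. Some genes are on several lists, so the counts of different lists are not independent. Named genes are the 12 higher and 12 lower with the largest change (mean count of at least 100, groups that do not overlap), up to 6 members of a list with the smallest p, members against their list's direction, the highest member by RPKM, and 6 genes a side for the difference between salines. Some genes that the rule allows are not reported here. Alternatives were DESeq2 1.42.0, median-of-ratios factors, total counts, no filter, a filter of 5 CPM in 3 libraries, only the 6 libraries of pH 7.4, the replicate number as a term, a test against a fold change of 1.2, each library left out, and a correction of each library by natural splines of length and of GC content (5 degrees of freedom each). That correction was added for pH 6.0 and for the difference after seeing the data.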

Additional observations from a re-analysis of the deposited data

Results flagged for a closer look

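The change from 3 h to 6 h differed between pH 7.4 and pH 6.0, by the test of the difference itself, for 4589 of 15630 genes. The genes the report names for such a difference are given here as the log2 change at pH 7.4 minus that at pH 6.0 (edgeR, adjusted over all tested genes). The second value is that of the fit corrected for length and GC content. Positive differences were those of ENSG00000260597 (3.31, 3.35), ENSG00000271533 (2.43, 2.18), ENSG00000197550 (2.28, 2.16), HOXB4 (2.04, 1.97), HOXB-AS3 (1.83, 1.96), GALNT4 (1.81, 1.53), TNS4 (1.71, 1.64), RORA (1.60, 1.02), SLC6A9 (1.46, 1.56), SAMD9 (1.42, 0.98), IRS2 (1.25, 0.97), CLDN1 (1.19, 1.12), EGFR (1.17, 0.67), SLC38A2 (0.69, 0.45) and CDX2 (0.66, 0.62). Negative differences were those of CCN2 (-2.26, -2.18), KIT (-2.05, -2.29), PFKFB4 (-1.96, -1.97), MSMO1 (-1.92, -1.87), RHOV (-1.84, -1.60), MESP1 (-1.81, -1.60), HMGCS1 (-1.73, -1.81), INSIG1 (-1.68, -1.69), NDRG1 (-1.34, -1.39), DUSP5 (-1.31, -1.21), NFKBIA (-1.13, -0.96), MAFF (-1.07, -0.90), PGAM1 (-1.05, -0.90), FAU (-1.05, -0.85) and HSPH1 (-0.82, -0.93). For CDX2 both changes were falls, and for DUSP5, MAFF and HSPH1 both were rises. CCN2 fell at pH 7.4, a call lost without any 1 of 5 libraries (all but replicate 1 at 3 h) and in the fit corrected for length and GC content, and rose by 1.93 at pH 6.0.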

How the results depend on the processing

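The 4942 calls at pH 7.4 numbered between 3309 (without replicate 3 at 6 h) and 5211 when single libraries were left out, and 4117 with the length and GC correction. A test against a fold change of 1.2 called 1666 genes, 1150 higher and 516 lower. Total counts alone called 2093 higher and 3179 lower against 2695 and 2247. At pH 6.0 the 3050 calls ranged from 1915 (without replicate 3 at 3 h and pH 6.0) to 3408 with single libraries left out, and total counts alone called 773 higher and 2499 lower against 1351 and 1699. The length and GC correction there called 2266 higher and 1508 lower, and for the difference between salines 1605 positive and 2067 negative against 2541 and 2048. The 4589 calls of that difference ranged from 3457 to 5136 with single libraries left out. Same-numbered libraries of the 3 h and 6 h groups at pH 7.4 deviated with correlations of 0.05086, -1.358e-05 and 0.08983, so the numbers were not taken to pair them. With the replicate number as a block 5115, 3289 and 4774 genes passed at pH 7.4, at pH 6.0 and for the difference. The block changed the call of none of the 219 named genes.

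Of 4598 combinations of a named gene and a setting 4414 kept direction and call, 168 lost the call, 15 gained it and 1 reversed, MKI67 at -0.05 with the length and GC correction. That correction ended the call of 14 other named genes. Of the 219 named genes 214 passed in the main fit and most were chosen for that, so many kept calls were likely from the start. Of the 50 lists, 37 were weaker or moved in the test against a fold change of 1.2, and 7 with the length and GC correction. At pH 7.4, 17 lists were so without replicate 3 at 6 h and 11 without replicate 1 at 3 h. DESeq2 called CLDN3 (-0.34) and KRT8 (-0.19), which the report gives as not passed. Depth limits genes such as KIT and the least abundant markers, which have a few counts in some libraries.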

Other observations

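Kruppel-like factors, zinc finger regulators of epithelial growth and maturation, rose as a list, with 10 of 13 tested genes higher and none lower at 6 h at pH 7.4 (median log2 0.48, corrected fit 10 and 0). KLF12 went from 19.8, 29.4 and 22 CPM to 47.6, 50.5 and 53.4 CPM (1.09 ± 0.12, and 0.65 in the corrected fit) and KLF3 rose by 0.64 ± 0.07. Of 20 clock genes 7 were higher and 1 lower (corrected fit 7 and 1). The nuclear receptor gene RORA, an activator of BMAL1, went from 20, 26.4 and 21.2 CPM to 50.1, 53.3 and 55.1 CPM (1.23 ± 0.11, edgeR adjusted p = 5.60e-08), and fell by 0.37 on the log2 scale in acid. The repressor NR1D2 rose by 0.79 ± 0.09 and PER1 by 0.64 ± 0.09, and DBP fell by 0.43, a call lost without replicate 3 of either time. Of 23 Wnt targets and stem cell genes 7 were higher and 3 lower (corrected fit 7 and 4). SOX9, a factor of the crypt base, went from 155, 138 and 140 CPM to 260, 271 and 261 CPM (0.87 ± 0.08), the Wnt inhibitor ZNRF3 rose by 0.54 ± 0.08 and the stem cell factor ASCL2 fell by 0.57, or by 0.30 in the corrected fit. Of 34 splicing factors and CLK kinases 13 were lower and 1 higher (median -0.14, corrected fit 18 and 1), with SRSF5 and SRSF7 lower by 0.77 and 0.71. Without replicate 3 at 6 h 8 were lower and none higher, and without replicate 2 at 3 h 4 were higher.

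Of 29 heat shock chaperones 8 were higher and 2 lower (median log2 0.06, corrected fit 9 and 2), against 22 and 1 at pH 6.0 (median 0.57), and for 18 the change was smaller at pH 7.4 than in acid by the test of the difference. Without replicate 3 at 6 h 5 were higher. HSPH1 rose from 124, 107 and 121 CPM to 150, 152 and 162 CPM (0.40 ± 0.10, edgeR adjusted p = 0.00306) and by 1.22 in acid. HSPE1 fell by 0.49 at pH 7.4, a call lost without replicate 2 at 3 h, and rose by 0.93 in acid. Of 29 NF-kB targets 9 were higher and 2 lower (corrected fit 11 and 1), against 23 and none in acid. BIRC3 rose by 0.85 ± 0.08 and NFKB2 by 0.76 ± 0.10, whereas the inhibitor gene NFKBIA fell from 104, 91.9 and 104 CPM to 77.4, 80.1 and 75.1 CPM (-0.37 ± 0.10, adjusted p = 0.00625). That call was lost in the corrected fit. Of 30 genes of the unfolded protein response 6 were higher and 7 lower (corrected fit 4 and 8), with XBP1 higher by 0.27 ± 0.07 and the endoplasmic reticulum proteins CRELD2 and MANF lower by 0.72 and 0.57. Without replicate 3 at 3 h 3 were higher.

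Of 36 interferon-stimulated genes 11 were higher and 6 lower (corrected fit 9 and 2), with 15 positive and 7 negative differences from acid. The lower genes numbered 2 without replicate 1 or 3 at 3 h or replicate 1 at 6 h, and 1 without replicate 3 at 6 h. The RNA sensors IFIH1 and RIGI rose by 0.60 ± 0.08 and 0.57 ± 0.08. SAMD9 went from 145, 195 and 167 CPM to 276, 267 and 322 CPM (0.77 ± 0.11, and 0.41 in the corrected fit) and fell by 0.65 in acid. Of 21 genes of chloride secretion, the function for which T84 cells are most used, 8 were higher and 2 lower (corrected fit 7 and 3). The higher ones numbered 3 or 4 without replicate 1 or 3 of either time. The muscarinic receptor gene CHRM3, through which acetylcholine starts secretion, went from 22.4, 25.9 and 21.1 CPM to 44.9, 46.8 and 48.5 CPM (1.01 ± 0.09, edgeR adjusted p = 7.13e-08), and the calcium-activated channel gene ANO1 rose by 0.43 ± 0.11. In the corrected fit CHRM3 stood at 0.69 and ANO1 at 0.37. Of 25 NRF2 genes 7 were higher and 6 lower (corrected fit 7 and 3), and 3 were lower without replicate 1 at 3 h. TXNRD1 rose by 0.52 ± 0.07 and GCLC by 0.36 ± 0.07, and the heme oxygenase gene HMOX1 fell from 3.78, 5.58 and 6.87 CPM to 2.73, 3.06 and 1.76 CPM (-1.07 ± 0.23). Of 43 ribosome biogenesis genes 12 were lower and 3 higher (corrected fit 13 and 3), with 7 lower without replicate 1 at 3 h and 6 without replicate 3 at 6 h. The RNA polymerase I factor UBTF fell by 0.47, the helicase DDX21 rose by 0.52 ± 0.08, and the elongation factor kinase EEF2K, of the translation list, fell by 0.73 on the log2 scale.

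Other lists showed few or mixed calls. Of 41 translation factors 5 were higher and 5 lower (corrected fit 7 and 10), with 11 lower without replicate 2 at 3 h and 3 without replicate 1 at 3 h or replicate 3 at 6 h. Of 17 genes of gluconeogenesis and pyruvate control 3 were higher and 5 lower (corrected fit 3 and 4), with 2 lower without replicate 1 at 3 h and 1 without replicate 3 at 6 h. Of 16 lactate transport and carbonic anhydrase genes 1 was higher and 5 lower (corrected fit 2 and 4), with 3 lower without replicate 3 of either time or replicate 1 at 6 h. Of 21 TGF-beta and BMP targets 5 were higher and 2 lower (corrected fit 5 and 0, and 3 and 0 without replicate 3 at 6 h), of 11 genes of the MYC network 4 and 1 (6 and 0), of 11 MondoA targets 2 and 1 (2 and 1), and of 10 metallothionein and zinc genes 2 and 1 (1 and 1). PER1, HSPE1 and GCLC share exon sequence with another annotated gene on the same strand, so their counts are uncertain.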
